A study of Mus musculus with 12 samples.

Results

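The genes described here are 6 transporters of glutamate and GABA signaling: the vesicular glutamate transporters Slc17a7, Slc17a6 and Slc17a8, the vesicular GABA transporter Slc32a1, and the plasma membrane carriers Slc1a1 and Slc6a11. They were chosen by name, and 6 of 6 were found among the 20504 genes counted on coding sequence (CDS) in all 12 libraries. The study combined ribosome profiling, which sequences the mRNA fragments shielded by ribosomes, with poly(A) RNA-Seq, to ask which mRNAs are translated in which brain cells and how mTOR inhibition alters that. All 6 mice were adult and carried Camk2a-cre and RiboTag, an allele that puts an HA tag on the ribosomal protein Rpl22 wherever Cre has acted. The Camk2a promoter drives Cre mainly in excitatory neurons of the forebrain, so the tag marks mainly the ribosomes of those neurons. Mice A and B are labelled untreated and, by the study's methods, were gavaged with vehicle. Mice C and D received a single oral dose of AZD-8055, an ATP-competitive mTOR inhibitor, at 100 mg/kg, and tissue was taken 1 h later. Each of these 4 mice gave an RNA-Seq and a footprint library from the same lysate. Mice E and F, labelled untreated, each gave RNA-Seq of the homogenized tissue (input) and of the polysomes pulled down with an antibody to the HA tag (IP). Each group therefore held 2 mice, and for A to D the tissue was the right frontal lobe.

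Vesicular transporters load transmitter into synaptic vesicles and so fix what a neuron can release. VGLUT1 (Slc17a7) is the main loader of glutamate in the cortex and hippocampus, VGLUT2 (Slc17a6) in the thalamus and other subcortical nuclei, and VGLUT3 (Slc17a8) is found in scattered cells that also release another transmitter, such as cholinergic interneurons of the striatum and serotonergic neurons. VGAT (Slc32a1) loads GABA and glycine in inhibitory neurons. At the plasma membrane EAAC1 (Slc1a1) takes up glutamate and cysteine into neurons, and GAT3 (Slc6a11) takes up GABA, mostly into astrocytes.

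On the mouse assembly GRCm38.p6, to which mm10 corresponds, RefSeq places Slc17a7 at chr7:45163921-45176139, Slc17a6 at chr7:51621830-51671126, Slc32a1 at chr2:158607260-158615747, Slc6a11 at chr6:114131241-114249886 and Slc1a1 at chr19:28835135-28913960, all on the plus strand, and Slc17a8 at chr10:89574020-89621249 on the minus strand. The start of the transcript is shown here because mRNAs of the translation machinery that depend most on mTOR begin with a C and a run of pyrimidines (the 5′ TOP motif). RefSeq listed 8 start windows for the 6 genes. For 7 of them, the 10 bases before and the 10 bases from the annotated start are printed 5′ to 3′ on the coding strand, with the first 5 transcribed bases in capitals.
Slc17a7 (chr7:45163911-45163930, plus): ccccgacgctGAGTCcgcta
Slc17a6, first start (chr7:51621820-51621839, plus): gagcgggttaGCCAAaagca
Slc17a6, second start (chr7:51624627-51624646, plus): aggagggattGAGAAaggga
Slc17a8, first start (chr10:89621240-89621259, minus): cccgctgcagCCAGGgatac
Slc17a8, second start (chr10:89599806-89599825, minus): ggcttagagcAGTGTtggtt
Slc6a11 (chr6:114131231-114131250, plus): gcggcggcgcAGAGCcgggg
Slc1a1 (chr19:28835125-28835144, plus): ccccagcggcAGTGGcagcg
A C at the annotated start followed by 4 bases that were each C or T was found in 0 of the 8 windows. It was found in 2.51% of all 32851 RefSeq windows and in 18.6% of the 70 windows of ribosomal protein genes (Rpl and Rps). Annotated starts can miss the start used in the brain, so these letters describe the annotation only.

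The counts per library on CDS summed to between 3503873 and 15585831, and the footprint library of mouse C was the shallowest. Libraries of one group differed by more than counting error in all 6 groups (chi-square per degree of freedom between 2.74 and 9.88). A gene was called, in the IP and for a change in translation efficiency, where edgeR gave an adjusted p under 0.05 and a fold change over 2, and in the other comparisons by the adjusted p alone. In the IP, 4 of 8 excitatory forebrain neuron markers were called higher than in input, 8 of 8 GABAergic neuron markers and 9 of 10 astrocyte markers were called lower, and so were 6 of 6 oligodendrocyte, 4 of 5 microglial and 4 of 4 endothelial markers. Markers of striatal projection neurons did not fall as a set, with 1 of 9 called higher and 1 lower. The summed level of the excitatory markers was 3799 to 4170 CPM in input (counts per 1000000 CDS counts of the library) and 6173 to 6830 in IP, and that of the astrocyte markers 2687 to 2796 in input and 227 to 258 in IP.

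Levels in CPM cannot be compared between genes, since coding lengths were not at hand. In homogenized tissue, fewer cells of a type and less RNA per cell cannot be told apart.

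**Figure D1:**
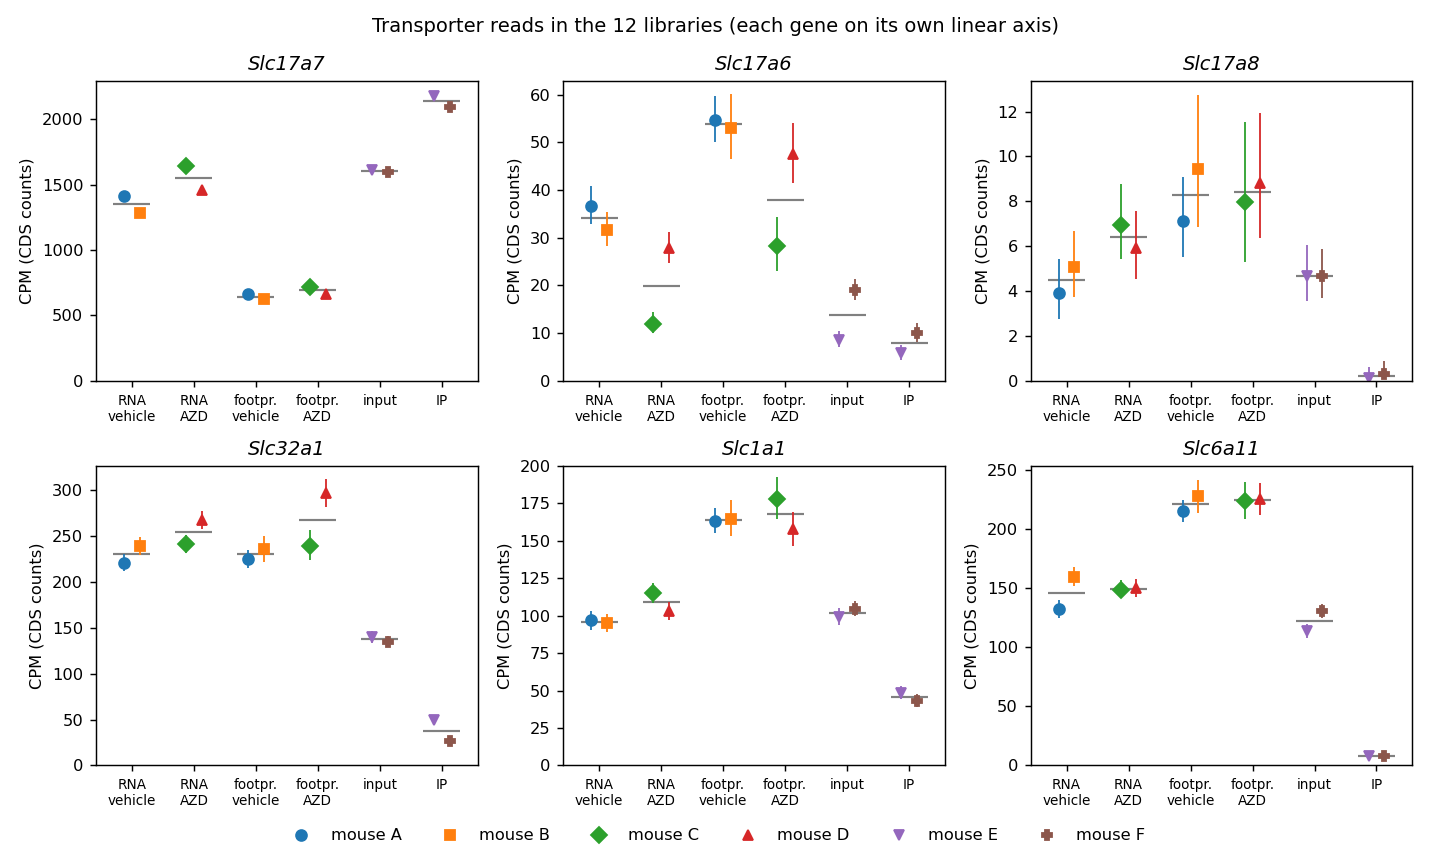
CDS counts in CPM in each of the 12 libraries, on a linear axis of its own for each gene. Points are mice, vertical lines are 95% exact Poisson intervals that cover counting error only, and grey bars are means of 2 mice. Slc17a7 is the gene whose 2 IP libraries lie above both inputs, and Slc17a8, Slc32a1, Slc1a1 and Slc6a11 lie below them. How many of all genes separated in this way was not counted.

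On CDS counts, Slc17a7 was the member with a larger share of reads in the tagged polysomes than in the tissue they came from. It had 1607 and 1599 CPM in the inputs of mice E and F and 2180 and 2091 in their IPs, from at least 20222 counts in each library. Both IP libraries lay above both inputs. How many of all genes separated in either direction was not counted, and this holds for each member below. Differences were common, since 9431 of the 12211 genes tested had an unadjusted p under 0.05 in edgeR. Normalized by size factors, the log2 ratios of IP to input were 0.99 and 0.97, or 0.98 ± 0.013 (SD, n = 2). These stood at percentiles 75.8 (E) and 74.8 (F) of the genes with enough counts. The edgeR fit gave 0.85 (SE 0.087, adjusted p = 3.1e-05), a 1.80-fold rise that stopped short of the 2-fold limit set for a call. With libraries scaled by total counts alone the value was 0.41, because that scaling moved the median of all genes by −0.44.

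Slc17a6 did not part in this way on CDS counts. Its level was 8.58 CPM in the input of mouse E and 19.0 in that of mouse F, and the IPs had 5.80 and 10.0. The range of the IPs overlapped that of the inputs, and mouse F was the higher mouse in both. Mouse E, with 54 IP reads, had a log2 ratio of −0.013, and mouse F, with 100, one of −0.34. The edgeR estimate of −0.37 (SE 0.39, 95% interval −1.26 to 0.52, adjusted p = 0.41) left the direction undecided. On the counts over whole exons the estimate was 0.37 (SE 0.43, adjusted p = 0.46), so even its sign depended on the part of the mRNA that was counted. The exon log2 ratios after size-factor normalization were 0.81 in mouse E and 0.34 in mouse F, above 0 in both. On CDS counts the sign also turned with single libraries. The estimate was 0.28 without the input of mouse F and 0.033 without the IP of mouse E, against −0.85 (adjusted p = 0.037) without the input of mouse E and −0.80 (adjusted p = 0.0081) without the IP of mouse F. Within a mouse, Slc17a7 exceeded Slc17a6 in log2 enrichment by 1.01 (E) and 1.31 (F) on CDS, and by 0.19 and 0.70 on exons.

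Slc17a8 had very few CDS reads in the IP. The inputs had 59 and 73 reads (4.69 and 4.68 CPM), while the IPs had 1 read in mouse E and 3 in mouse F (0.11 and 0.30 CPM). Both IPs lay far below both inputs, a separation not counted over all genes. Mouse E had a ratio of IP to input of 0.034 (95% counting interval 0.00084 to 0.19), and mouse F one of 0.096 (0.019 to 0.29). With a mean of 34 counts per library the gene fell under the minimum of 37 and was not tested on CDS. On exon counts, with 118 and 171 input reads against 11 and 18 in the IP, edgeR gave −2.78 (SE 0.29, adjusted p = 0.00032). Markers of serotonergic or cholinergic neurons summed to 15.4 and 15.5 CPM in the inputs and to 0.64 and 1.00 in the IPs, where Chat, the enzyme that makes acetylcholine, had 0 reads in mouse E and 1 in mouse F. The part of these cells in the Slc17a8 counts was not tested.

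Slc32a1 was lower in the IP. It had 140 and 135 CPM in the inputs of mice E and F and 49.2 and 26.6 in the IPs. The IPs lay below the inputs without overlap, and the share of all genes doing so was not counted. The log2 ratios of −0.95 and −1.76 differed between the mice by more than those of Slc17a7 or Slc6a11 did. EdgeR called the fall at −1.43 (SE 0.24, adjusted p = 0.00052), which is 2.69-fold. Markers of GABAergic neurons, among them Gad1 and Gad2, which make GABA, had a median log2 change of −2.25, and their sum went from 973 and 984 CPM in the inputs to 191 and 141 in the IPs. Striatal projection neurons also use GABA, and their markers had a median of −0.13. These summed to 1220 and 1026 CPM in the inputs of mice E and F and to 1455 and 955 in the IPs. The part of either kind of cell in the Slc32a1 counts was not tested.

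The plasma membrane carriers fell unequally. Slc6a11 had 114 and 131 CPM in input and 7.95 and 8.02 in IP. EdgeR gave −3.50 (SE 0.15, adjusted p = 2.2e-06), an 11.3-fold fall and the largest among the 5 members tested. On exon counts the fall was smaller, at −2.61 (SE 0.11, adjusted p = 5.0e-05). The 10 astrocyte markers had a median of −3.51 in the CDS fit, and their median on exon counts was not computed. On CDS counts Slc6a11, grouped here with transporters of neurons, thus lay close to the median of the astrocyte markers. Slc1a1 had 99.4 and 105 CPM in input and 48.7 and 43.2 in IP. Both IPs were lower, again without a count over all genes. EdgeR gave −0.72 (SE 0.12, adjusted p = 0.00072), 1.64-fold and under the fold limit. Its exon counts gave −0.19 (SE 0.094, adjusted p = 0.12), and scaling by total counts gave −1.16, which passed both limits. Slc6a11 lay below Slc1a1 in enrichment by 2.81 and 2.75 log2 units in the respective mice.

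Of the 5 members tested, 0 were called higher and 2 lower (Slc32a1 and Slc6a11), where 20.4% and 26.1% of the 12211 genes tested were called higher and lower. The median log2 change was −0.72 over these 5 and −0.067 over all genes. The ratio of exon to CDS counts was higher in the IP than in the input of the same mouse for the library as a whole, by 0.28 (E) and 0.32 (F) on the log2 scale. The ratio of Slc32a1 rose by 0.23 and 0.28, less than that, and the ratio of Slc17a7 by 0.44 and 0.58. It rose by 0.93 to 1.49 for Slc17a6, Slc6a11 and Slc1a1, and by 2.46 and 1.36 for Slc17a8, which had 1 and 3 CDS reads in the IPs.

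**Figure D2:**
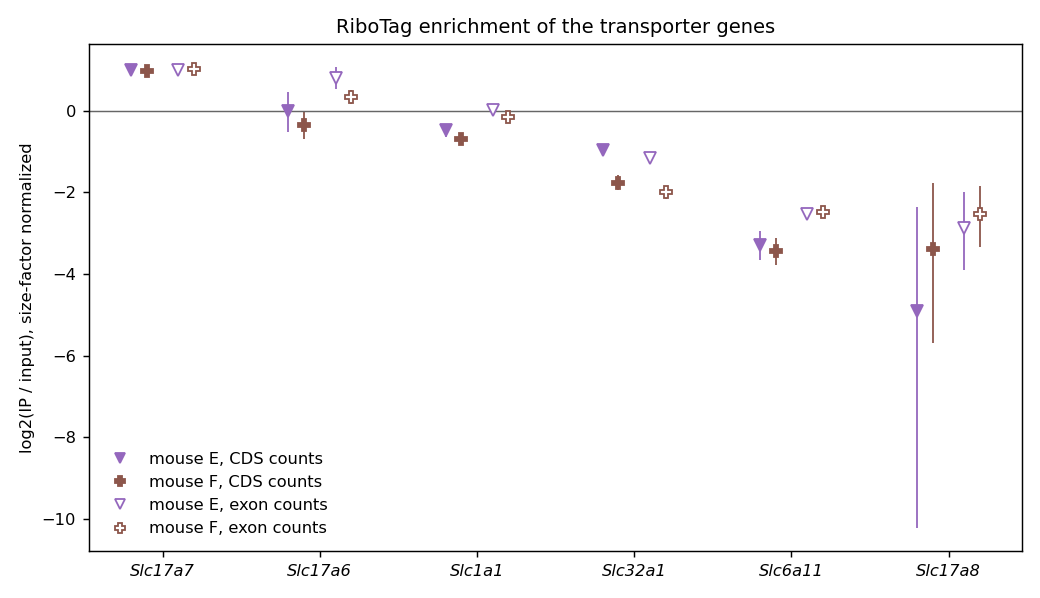
Log2 ratio of IP to input after size-factor normalization for each transporter gene in mice E and F, on CDS counts (filled) and on exon counts (open). Vertical lines are 95% counting intervals, the grey line marks no enrichment, and Slc17a7 lies near 1 in both mice on both counts while Slc17a8 and Slc6a11 lie lowest.

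The neighbors of these genes in the transmitter cycle were counted in the CDS fit of IP against input. Among the other plasma membrane glutamate and GABA transporters, 1 of 5 tested was called higher and 4 lower. Slc1a6 (EAAT4) rose by 1.19, and the astrocyte glutamate transporters Slc1a2 (GLT-1) and Slc1a3 (GLAST), which are also among the astrocyte markers, had log2 changes of −4.54 and −5.46. Of 6 glutamine and neutral amino acid transporters 5 were called lower, including the glutamine carriers Slc38a2 at −2.60, Slc38a3 at −3.24 and Slc38a1 at −1.78. Of 10 enzymes 1 was called higher and 7 lower. Got1, an aspartate aminotransferase, rose by 1.21, whereas Glul, which makes glutamine from glutamate in astrocytes, fell by 2.91 and Gad1 by 2.42. Of 3 mitochondrial glutamate carriers tested 1 was called lower, Slc25a18 at −2.80. Slc25a22 (0.54, adjusted p = 0.0018) and Slc25a12 (0.52, adjusted p = 0.0029) were above 0 but under the fold limit. The only other vesicular transporter tested, Slc17a5, was not called (0.083, adjusted p = 0.68). Every adjusted p of the genes named here as called was at or below 0.00051.

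Translation efficiency (TE) is the ratio of footprints to RNA-Seq reads of a gene, here after size-factor normalization, so that a log2 TE of 0 is close to that of the typical gene. In the vehicle-treated mice the members split. The glutamate transporter Slc17a7 carried fewer footprints than its mRNA level alone would give, and the other 5 carried more or about as many. Against RNA-Seq in edgeR, 4 of 6 members were called higher and 1 lower, where 36.6% and 36.9% of the 11891 genes tested were called higher and lower. The median was 0.77 over the members and −0.0051 over all genes. Differences were common here too, since 8944 of the 11891 genes had an unadjusted p under 0.05 in edgeR. Where footprint and RNA values of a member lay apart, the share of all genes doing so was not counted.

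For Slc17a7, RNA-Seq gave 1414 and 1282 CPM in mice A and B and footprints gave 660 and 624. The footprint values lay below the RNA values in both. Log2 TE was −0.97 in both mice, and edgeR gave −0.93 (SE 0.079, adjusted p = 1.3e-07), a 1.90-fold deficit. Among 10882 genes with enough counts its mean TE stood at percentile 15.8.

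For Slc17a6 the order was opposite. RNA-Seq gave 36.7 and 31.6 CPM and footprints 54.6 and 53.0, so both footprint values were above both RNA values. Log2 TE was 0.70 and 0.81, and edgeR gave 0.80 (SE 0.11, adjusted p = 1.5e-05). Log2 TE of Slc17a7 was below that of Slc17a6 in each of the 4 mice A to D, by 1.67 to 2.42.

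Slc17a8 rested on few reads. In mice A and B its RNA reads numbered 37 and 50 (3.94 and 5.05 CPM), and its footprints 66 and 43 (7.13 and 9.45 CPM). Log2 TE was 0.98 and 0.97, and edgeR gave 0.99 (SE 0.27, adjusted p = 0.0042). Without the RNA-Seq library of mouse A the value was 0.83 and the adjusted p 0.0505.

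Slc32a1 lay near the typical gene. RNA-Seq gave 221 and 239 CPM and footprints 225 and 236, and the ranges overlapped. Log2 TE was 0.15 and 0.046. EdgeR gave 0.14 (SE 0.074, 95% interval −0.018 to 0.30, adjusted p = 0.10) and, with the mouse as a block, 0.14 with an adjusted p of 0.022, so this call depended on the pairing of libraries by mouse.

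Both plasma membrane carriers were above the typical gene. Slc1a1 had 97.0 and 94.9 CPM in RNA-Seq and 163 and 165 in footprints, with log2 TEs of 0.88 and 0.86. EdgeR gave 0.92 (SE 0.073, adjusted p = 6.6e-08). Slc6a11 had 132 and 160 CPM in RNA-Seq and 215 and 228 in footprints, with log2 TEs of 0.83 and 0.58. EdgeR gave 0.74 (SE 0.086, adjusted p = 3.2e-06). For both, each footprint value was above each RNA value, an order not counted over all genes. Their TEs stood at percentiles 84.5 and 79.4.

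**Figure D3:**
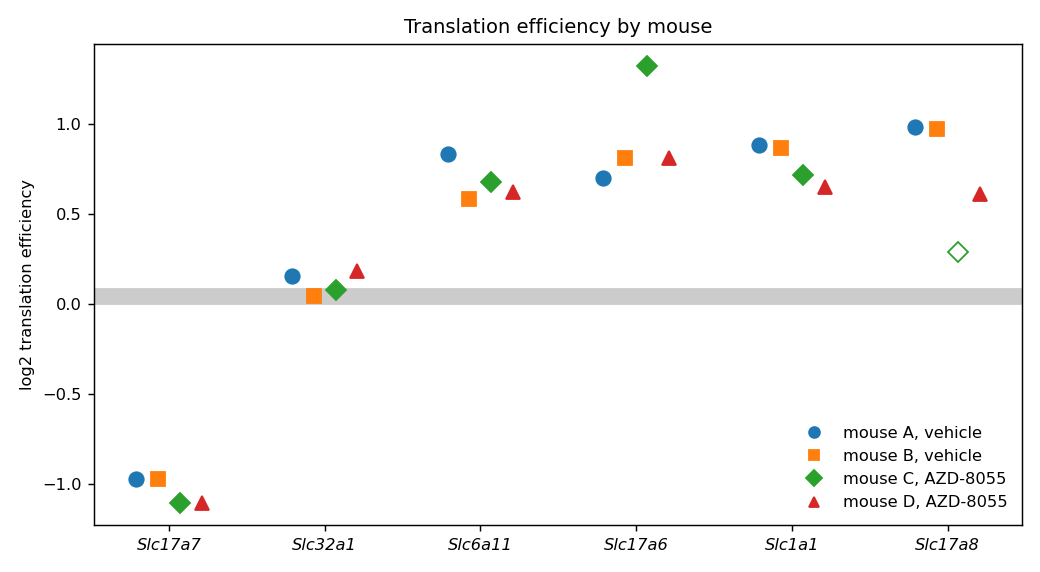
Log2 translation efficiency of each transporter gene in mice A to D, with the band of the medians of all genes (0.00044 to 0.084) in grey. The open symbol has fewer than 37 footprint reads. Slc17a7 lies near −1 in every mouse, Slc32a1 near 0, and the other genes above 0.

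The related genes were mostly above the typical gene as well. Of the enzymes 9 of 10 were called higher and 1 lower, with Gad1 at 0.99, Got2 at 0.86, Got1 at 0.67 and Glul at 0.38. Of 5 other plasma membrane transporters 3 were called higher, including Slc1a2 at 3.45 and Slc1a3 at 0.69. Of 4 glutamine and neutral amino acid transporters 3 were higher and 1 lower, of 4 mitochondrial glutamate carriers 3 were higher and 1 lower, and of 2 other vesicular transporters 1 was higher.

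At 1 h after AZD-8055, 0 of 6 members were called changed in RNA, in footprints or in TE. Calls were rare among all genes. In RNA-Seq 0.0575% of 12182 genes were called higher and 0.0903% lower, in footprints 0.0468% of 10695 higher and 0.982% lower, and in TE 0.00848% of 11797 higher and 0.297% lower. At an unadjusted p under 0.05 there were 1004, 1369 and 796 genes in these tests, and DESeq2 also called 0 members in each. The comparisons in RNA, footprints and TE share the same mice.

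Slc17a6 had the largest RNA and footprint values of the 6, whichever the sign. Its RNA level was 36.7 and 31.6 CPM in the vehicle-treated mice and 12.0 and 27.8 in mice C and D. Its footprints were 54.6 and 53.0 against 28.3 and 47.5. The treated mice lay below the vehicle-treated mice in both assays, and mouse C was far lower than mouse D. Lying below without overlap was so for 20.7% of all genes tested in RNA and 21.6% in footprints. EdgeR gave −0.76 in RNA (SE 0.24, unadjusted p = 0.0055, adjusted p = 0.33) and −0.49 in footprints (SE 0.18, adjusted p = 0.32), neither of which passed. Without mouse D the RNA value was −1.50 (adjusted p = 0.00028) and the footprint value −0.93 (adjusted p = 5.8e-06). Without mouse C they were −0.29 and −0.20 and did not pass, so the size rested on mouse C. The 7 genes marking the thalamus summed to 86.2 and 104 CPM of RNA in mice A and B and to 67.5 and 74.6 in mice C and D, and in footprints to 84.9 to 92.9 and 78.2 to 85.3. How much of the Slc17a6 difference goes with the amount of thalamus in the sample was not tested. The TE change of Slc17a6 was 0.26 (95% interval −0.53 to 1.04, adjusted p = 0.95).

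The other vesicular transporters did not pass the test either. Slc17a7 RNA was 1414 and 1282 CPM with vehicle and 1644 and 1458 with AZD-8055, and its footprints were 660 and 624 against 721 and 662. The groups did not overlap, as was so for 18.1% (higher) and 20.7% (lower) of genes in RNA and 22.8% and 21.6% in footprints. EdgeR gave 0.21 in RNA (SE 0.067, adjusted p = 0.36) and 0.097 in footprints (SE 0.071, adjusted p = 0.60). Log2 TE was −1.10 in both treated mice, against −0.97 with vehicle, and the change of −0.13 had a 95% interval of −0.37 to 0.10 (adjusted p = 0.88).

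Slc17a8 had 6.95 and 5.92 CPM of RNA in mice C and D and 7.99 and 8.82 in footprints. Its RNA lay above the vehicle range in both treated mice, by 0.52 in edgeR (SE 0.24, 95% interval −0.0029 to 1.04, adjusted p = 0.61), and its footprints lay inside the vehicle range (0.052, adjusted p = 0.95). With 28 and 42 footprint reads, a TE change of −0.48 had an interval from −1.24 to 0.27 (adjusted p = 0.85), so a 2-fold fall lay within the interval at this depth. Slc32a1 had 241 and 267 CPM of RNA and 239 and 296 of footprints in mice C and D. Both ranges were above those with vehicle, by 0.15 (SE 0.075, adjusted p = 0.65) in RNA and 0.21 (SE 0.096, adjusted p = 0.39) in footprints. Without the footprint library of mouse C the footprint value for Slc32a1 was 0.35 with an adjusted p of 0.0038. Its TE change was 0.045 (95% interval −0.23 to 0.32). The 9 markers of striatal projection neurons, which also use GABA, summed to 1823 to 1885 CPM of RNA with vehicle and 2109 to 2255 with AZD-8055, and in footprints to 1995 to 2040 and 2155 to 2463, and 1 of the 9 was called higher in RNA. Markers of serotonergic or cholinergic neurons summed to 24.7 to 28.7 CPM of RNA with vehicle and 26.4 to 28.1 with AZD-8055. In footprints they summed to 42.0 to 54.3 and 40.0 to 53.4, so both ranges overlapped. The part of any of these cells in the values of Slc17a8 and Slc32a1 was not tested.

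Of the plasma membrane carriers, Slc1a1 had 115 and 103 CPM of RNA in mice C and D, both above the vehicle range, and 178 and 158 of footprints, which overlapped it. The RNA value was 0.19 (SE 0.077, adjusted p = 0.53), and the TE change was −0.19 (95% interval −0.44 to 0.058, adjusted p = 0.80). Slc6a11 had the smallest estimates of the 6 in RNA and in footprints. Its RNA level was 149 and 150 CPM in the treated mice, within the vehicle range, and its footprints were 224 and 225, also within it. The changes were 0.041 (95% interval −0.13 to 0.21) in RNA, 0.013 (−0.15 to 0.18) in footprints and −0.048 (−0.30 to 0.20) in TE. Leaving out 1 library or mouse moved them to between −0.079 and 0.18 in RNA and between −0.16 and 0.045 in TE. The other genes of the glutamate and GABA lists were also not called in these 3 comparisons.

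**Figure D4:**
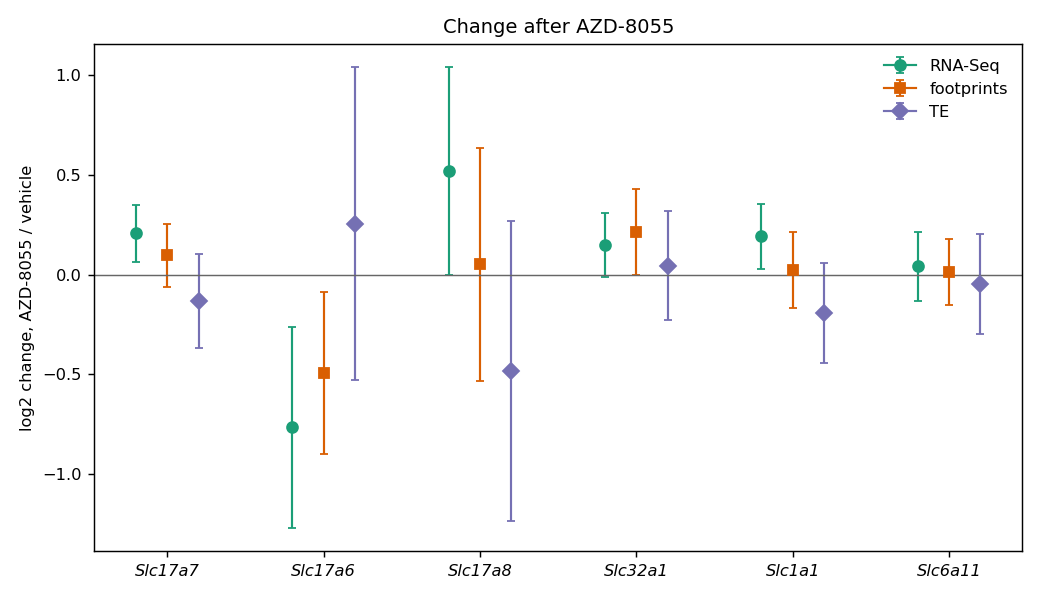
Log2 change with AZD-8055 relative to vehicle in RNA-Seq, footprints and TE for each transporter gene, from edgeR fits with 2 mice a group. Vertical lines are unadjusted 95% intervals and the grey line marks no change. Slc17a6 has the lowest RNA and footprint values, and the TE intervals of all 6 genes include 0.

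Across the 12 libraries, the genes most like each member were named by Pearson correlation of log2(CPM + 1) among 12014 genes. These libraries share mice, assays and depth, and levels differ between assays and between IP and input, so the values only describe them. Slc17a7 was closest to Adap1 (0.991), Bcs1l (0.989) and B4galnt1 (0.989). Slc17a6 was closest to A730017C20Rik (0.963), Endou (0.953) and Trh (0.949), the precursor of thyrotropin-releasing hormone. Slc17a8 was closest to Ermp1 (0.989), Lhfpl3 (0.987) and Pde10a (0.987), a phosphodiesterase abundant in the striatum. Slc32a1 was closest to Pde1b (0.988), Acly (0.987) and Agxt2l1 (0.986). Slc1a1 was closest to Pde7b (0.996), Yy1 (0.994) and Aldh3a2 (0.993), and Slc6a11 to Cpq, Ttyh2 and Sparcl1 (each 0.997). Among the members, Slc6a11 and Slc17a8 were most alike (0.985), and Slc17a7 ran opposite to the other 5 (−0.88 to −0.65).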

How the data were processed

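The authors deposited raw read counts per gene, one table on CDS (12 libraries) and another on whole exons (8 RNA-Seq libraries). The submitters' processing notes name Bowtie2, TopHat2, HTSeq and mm10, with no versions. Members and lists were chosen with earlier results of these data known. Genes averaging 37 counts or more over the libraries compared were tested with edgeR 4.0.16 in R 4.3.3 (TMM, quasi-likelihood F-test, Benjamini-Hochberg adjustment over all genes tested). A call needed an adjusted p under 0.05 and, for IP and TE change, a fold change over 2. TE and enrichment per mouse used DESeq2 1.42.0 size factors. RiboDiff, used by the study, was replaced by the edgeR interaction of assay and treatment. Tests were run on simulated counts with planted changes and the same spread in every gene. Such counts do not show the error rates in these data.

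Libraries of one letter come from one mouse. Their deviations from the group means correlated at 0.253 (A and B), 0.240 (C and D) and 0.462 (E and F) across genes. All 6 members are named in each comparison, with at most 4 genes of other lists, those with the highest mean count, and the 3 most alike genes. Markers are named where a member's values are set beside them. Alternatives were DESeq2, total-count scaling, no count filter, no fold limit, exon counts, the mouse as a block and leaving out each library. Symbols that had turned into dates (27 entries, 0.350% of counts) were kept. Figures used matplotlib 3.10.9. Intervals on counts cover counting error only. Some items that these rules cover are not reported here.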

Additional observations from a re-analysis of the deposited data

How the results depend on the processing

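Of 242 values of single members under alternatives, 233 kept their side of the threshold, 8 passed it newly, 1 lost it and 0 reversed a call. Without a fold limit, the IP called 9221 genes (5680 with it) and 4 members (2 with it, Slc17a7 and Slc1a1 added), and TE change 102 genes (36 with it). For AZD-8055 in RNA, 18 genes became 28 with DESeq2, 29 with total-count scaling and 78 without the count filter. In footprints 110 became 264 without the filter, when Slc17a6 was called (−0.53, adjusted p = 0.017), and for TE 36 became 57. Leaving out a library gave 13 to 36 genes and 0 to 1 members in RNA, and 64 to 837 genes and 0 to 1 members in footprints. The lone library left in a group was then assumed to vary like the other group. The calls gained without one library were Slc17a6 in RNA and footprints (without mouse D), Slc32a1 in footprints (without mouse C) and, in the IP, Slc17a8, which then met the count minimum (−3.43 without the IP of mouse E, −4.89 without that of mouse F). Slc1a1 passed in the IP with total-count scaling (−1.16). The cause was not tested.

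With the mouse as a replicate block, the pairing gave 5698 genes and 2 members in the IP, 43 genes and 0 members for TE change, and 9159 genes and 6 members for baseline TE (8738 and 5 without it), where Slc32a1 was gained at 0.14. The block changed no other call. Scaling by total counts moved the median of all genes by −0.44 in the IP and by −0.14 for baseline TE. Levels scaled by size factors were 0.877 to 1.30 times those in CPM. Depth limited Slc17a8 most, with 1 and 3 reads in the IPs. With 2 mice a group the errors are themselves uncertain, and 4 footprint libraries differed in depth. No group had enough libraries to look for a library standing apart.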
